A study of Saccharomyces cerevisiae with 12 samples.

Results

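The hexose kinases of budding yeast are the enzymes that add the first phosphate to glucose and related sugars once these have entered the cell. They were followed here through 4 coding sequences, *HXK1* (YFR053C), *HXK2* (YGL253W), *GLK1* (YCL040W) and *EMI2* (YDR516C), chosen by their identifiers from the 5917 coding sequences measured. RNA-seq was carried out on BY4741, a haploid laboratory strain of mating type **a**, and on *mrn1Δ*, the same strain with a kanamycin cassette integrated at *MRN1*, the gene of an RNA-binding protein. Both genotypes were harvested 20 min after a shift to YEPEG medium with 2% ethanol and 2% glycerol (respiratory libraries) and during log-phase growth at an OD600 of 0.6 in YEPD medium with 2% glucose (fermentative libraries), as 3 cultures in each of 4 groups. The groups are *mrn1Δ* respiratory, wild-type respiratory, *mrn1Δ* fermentative and wild-type fermentative. The number of *mrn1Δ* clones is not given in the sources used here, and no library was shifted into fresh glucose, so the change of carbon source and the handling of the shift cannot be told apart.

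Yeast phosphorylates hexoses with the hexokinases Hxk1 and Hxk2, which act on glucose and fructose, and with the glucokinase Glk1, which acts on glucose and not on fructose. Hxk2 is the main enzyme of cells growing on glucose and also takes part in glucose repression, in which the repressor Mig1 keeps genes for other carbon sources off. Hxk1 and Glk1 are known as the forms made when glucose is scarce or absent, and Emi2 is the paralog of Glk1, first named for a part in early meiotic induction. A kinase that works on sugar from the medium has no such substrate in ethanol and glycerol, but the cell can still release glucose from its own trehalose and glycogen.

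The files gave 16231559 to 26542199 estimated counts per library, and each hexose kinase had between 1697 and 143016 of them, so that counting error alone is at most 2.43% of a value. *MRN1* had 2 to 10 counts in *mrn1Δ* respiratory libraries and 2 to 15 counts in *mrn1Δ* fermentative libraries, against 1676 to 2079 counts in wild-type respiratory libraries and 2047 to 3303 counts in wild-type fermentative libraries. The **a**-cell receptor gene *STE2* was present in every library, at 1504 to 4598 counts, and the α-cell receptor gene *STE3* had 38 to 90. The ranges of the mating factor genes overlapped between the types. *MFA1* and *MFA2* of **a** cells had 20 to 63 and 149 to 406 counts. *MFALPHA1* and *MFALPHA2* of α cells had 3 to 24 and 67 to 186. Of the genes listed as deleted in BY4741, *LEU2*, *MET17* and *URA3* had 0 to 12 counts. *HIS3*, also on that list, had 350 to 1545, and the reason was not tested. *JEN1*, a lactate permease gene that glucose represses, had 12714 to 40862 counts in the respiratory libraries and 270 to 372 counts in the fermentative ones. Among the other stage markers, *ADH2*, *FBP1*, *PCK1*, *ICL1* and *CAT8* were also higher in every respiratory library. *MLS1* overlapped between the stages, at 169 to 287 against 124 to 209 counts. *SIP4* went the other way in wild-type, at 181 to 301 respiratory against 468 to 611 fermentative counts. In *mrn1Δ* its ranges overlapped, at 264 to 436 against 304 to 385.

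All 4 hexose kinase genes have a single coding exon in the R64 genome. *HXK1* lies at chrVI:253592-255049 on the minus strand and codes for 485 residues, and *HXK2* lies at chrVII:23935-25395 on the plus strand and codes for 486 residues. *GLK1* lies at chrIII:50838-52340 on the plus strand and *EMI2* at chrIV:1474974-1476476 on the minus strand, and each codes for 500 residues. The coding sequences of *HXK1* and *HXK2* were identical at 77.7% of aligned bases and their proteins at 77.5% of aligned residues. *GLK1* and *EMI2* were identical at 68.7% of bases and 73.1% of residues, while the proteins of a hexokinase and a glucokinase shared 39.7% to 41.4%. The longest run of bases that *HXK1* and *HXK2* have in common is shown because it decides whether short reads can tell the paralogs apart. It is 23 bases long, at bases 247 to 269 of both coding sequences, chrVI:254781-254803 on the minus strand and chrVII:24181-24203 on the plus strand.
*HXK1* and *HXK2*: ttggccattgatttgggtggtac
No stretch of 31 bases in *HXK1*, *HXK2* or *EMI2* recurred in another coding sequence, and their estimated counts were whole numbers in all 12 libraries. In *GLK1*, 76 of 1473 such stretches (5.16%) were shared, all with YCL042W, an uncharacterized open reading frame that overlaps the start of *GLK1* on the same strand, and *GLK1* counts were not whole in 11 of 12 libraries. YCL042W itself had 72.4 to 122 counts in *mrn1Δ* respiratory libraries, 81.2 to 96.3 in wild-type respiratory, 30.7 to 41.9 in *mrn1Δ* fermentative and 24.6 to 46.4 in wild-type fermentative libraries, at most 0.893% of the *GLK1* counts of the same library.

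The 500 bases before each start codon were searched on both strands for short motifs of regulators linked to these genes, and the matches are shown because their number differs between *HXK2* and the other members. The stress response element AGGGG, the site of the stress activators Msn2 and Msn4, is in capitals in the windows of *HXK1* (chrVI:255539-255549, chrVI:255518-255532 and chrVI:255377-255391), *GLK1* (chrIII:50651-50680) and *EMI2* (chrIV:1476822-1476836 and chrIV:1476640-1476654), written 5′ to 3′ on the strand of the gene, where CCCCT is the same element on the other strand.
*HXK1*, -500 to -490 from the start codon: gCCCCTgaacc
*HXK1*, -483 to -469: ttctgCCCCTttgaa
*HXK1*, -342 to -328: ttttaAGGGGttgat
*GLK1*, -187 to -158: gtcaaCCCCTttcAGGGGgcCCCCTatctt
*EMI2*, -360 to -346: ccttcAGGGGtagtt
*EMI2*, -178 to -164: gatgcAGGGGgggga
*HXK1* and *GLK1* had 3 matches each, *EMI2* had 2 and *HXK2* had 0. Among 5909 windows of the same length, 34.0% held at least 1 match, 8.24% at least 2 and 1.86% at least 3. The 3 matches before *GLK1* lie within 20 bases of each other, inside the reading frame of YCL042W.

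The core of the site of the repressor Mig1, searched as GCGGGG or GTGGGG or CCGGGG or CTGGGG, had 2 matches before *HXK1*, 1 before *GLK1*, 1 before *EMI2* and 0 before *HXK2*, and 22.6% of all windows held at least 1. They are in capitals here, at chrVI:255530-255545, chrVI:255343-255358, chrIII:50615-50630 and chrIV:1476773-1476788.
*HXK1*, -496 to -481: ctgaaCCCCACtattc
*HXK1*, -309 to -294: tctccCCCCGGatttt
*GLK1*, -223 to -208: ttgcaCCCCGCattat
*EMI2*, -312 to -297: aaaacGCGGGGcatcc
*HXK2* had instead 1 match to CGGANNA, the core bound by the glucose-responsive repressor Rgt1, which the other 3 windows lacked and 42.1% of all windows held. It is in capitals here on the opposite strand, at chrVII:23528-23544.
*HXK2*, -407 to -391: gcagtTTTTCCGgtcga
CTTCC, the core of the glycolytic activator Gcr1, had 3 matches before *HXK1*, 1 before *GLK1*, 4 before *EMI2* and 0 before *HXK2*. At least 1 was held by 66.0% of windows, at least 3 by 10.2% and at least 4 by 3.23%. The TATA box TATAAA had 0, 1, 1 and 2 matches in the same order of genes, against 60.8% of windows with at least 1 and 26.8% with at least 2. No match of one motif overlapped a match of another. The letters show where a motif occurs and not whether a factor was bound.

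Levels are given first as CPM (counts scaled to 1000000 per library) after TMM normalization, which scales libraries by the bulk of their genes. *HXK1*, the hexokinase of poor carbon sources, had 5120, 5405 and 5056 CPM in *mrn1Δ* respiratory libraries and 4306, 4879 and 3939 CPM in wild-type respiratory libraries. It had 87.5, 96.8 and 110.2 CPM in *mrn1Δ* fermentative libraries and 81.4, 94.6 and 103.5 CPM in wild-type fermentative libraries. Every respiratory library was far above every fermentative one, and the genotypes overlapped in fermentative growth but not in respiratory growth.

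*GLK1*, the glucokinase, had 3549, 3819 and 3625 CPM in *mrn1Δ* respiratory libraries and 2961, 3727 and 2877 CPM in wild-type respiratory libraries. In fermentative growth it had 203, 227 and 267 CPM in *mrn1Δ* and 244, 230 and 254 CPM in wild-type libraries. The stages were again far apart, and the genotypes overlapped in both stages. In respiratory growth they overlapped because the second wild-type library was above 2 of the 3 *mrn1Δ* libraries.

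*EMI2*, the paralog of *GLK1*, had 1067, 1089 and 1121 CPM in *mrn1Δ* respiratory libraries and 1010.5, 1014 and 948 CPM in wild-type respiratory libraries. It had 79.9, 85.3 and 109 CPM in *mrn1Δ* fermentative libraries and 112, 94.0 and 115 CPM in wild-type fermentative libraries. The genotypes did not overlap in respiratory growth, where each *mrn1Δ* library was above each wild-type one, and they overlapped in fermentative growth.

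*HXK2*, the hexokinase of growth on glucose, had 2734, 2933 and 2715 CPM in *mrn1Δ* respiratory libraries and 2557, 3302 and 2747 CPM in wild-type respiratory libraries. It had 1806, 1898 and 1975 CPM in *mrn1Δ* fermentative libraries and 1807, 2020 and 1831 CPM in wild-type fermentative libraries. The transcript was abundant in all 12 libraries, was higher in each respiratory library than in each fermentative one, and overlapped between genotypes in both stages. The second wild-type respiratory library was the highest of its group for all 4 genes.

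**Figure D1:**
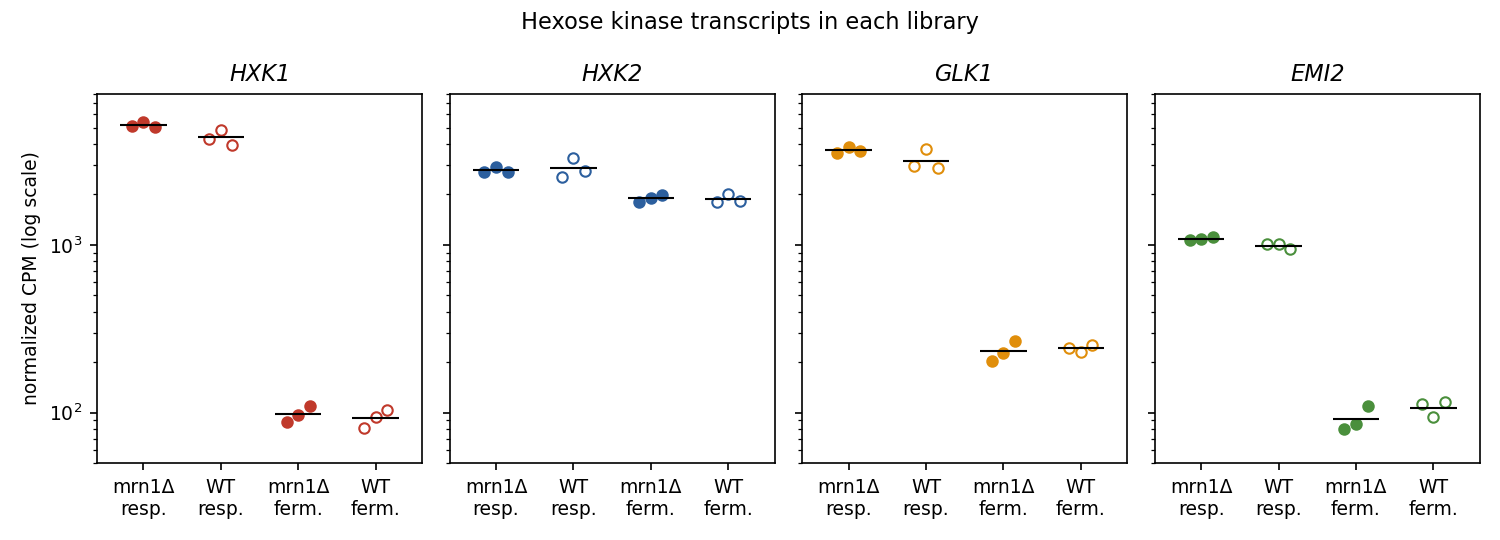
Normalized CPM (log scale) of each hexose kinase in each library, with *mrn1Δ* as filled points, wild-type as open points and the mean of 3 libraries as a bar. *HXK1*, *GLK1* and *EMI2* sit far higher in the respiratory groups, with *HXK1* between 3939 and 5405 CPM there and between 81.4 and 110.2 CPM in the fermentative groups, while *HXK2* has at least 1806 CPM throughout.

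Levels of different genes were compared in TPM, which divides by coding length before scaling to the same total. In *mrn1Δ* respiratory libraries the TPM was 4688 ± 233 for *HXK1*, 3205 ± 159 for *GLK1*, 2517 ± 143 for *HXK2* and 955 ± 19.8 for *EMI2* (SD, n = 3). In wild-type respiratory libraries it was 3835 ± 315 for *HXK1*, 2708 ± 343 for *GLK1*, 2512 ± 313 for *HXK2* and 843 ± 4.48 for *EMI2* (SD, n = 3). The order *HXK1*, *GLK1*, *HXK2*, *EMI2* held in all 6 respiratory libraries, but the ranges of *GLK1* and *HXK2* overlapped in wild-type, where their TPM ratio was 1.02 to 1.12, and not in *mrn1Δ*, where it was 1.26 to 1.30.

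In fermentative growth the TPM of *HXK2* was 1332 ± 52.0 in *mrn1Δ* and 1320 ± 104 in wild-type libraries, that of *GLK1* was 159 ± 20.5 and 165 ± 16.3, that of *HXK1* was 69.2 ± 7.39 and 65.6 ± 11.6, and that of *EMI2* was 62.4 ± 9.75 and 72.8 ± 10.2, *mrn1Δ* first in each pair (SD, n = 3). *HXK2* was the highest and *GLK1* the next in all 6 libraries. *HXK1* and *EMI2*, the lowest, overlapped in both genotypes: *HXK1* was above *EMI2* in all 3 *mrn1Δ* libraries, and *EMI2* was above *HXK1* in 2 of 3 wild-type libraries.

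The make-up of the hexose kinase transcripts therefore differed between stages. *HXK1* was 41.2% of the summed TPM of the 4 genes in *mrn1Δ* respiratory libraries and 4.26% in *mrn1Δ* fermentative libraries, and 38.8% in wild-type respiratory and 4.02% in wild-type fermentative libraries. *HXK2* was 22.1% in *mrn1Δ* respiratory libraries and 82.1% in *mrn1Δ* fermentative libraries, and 25.3% in wild-type respiratory and 81.3% in wild-type fermentative libraries. The lower share of *HXK2* in respiratory growth came with a higher and not a lower *HXK2* TPM, since the other 3 genes were higher by larger factors. *GLK1* made up 27.3% to 28.2% of the sum on average in the respiratory groups and 9.76% to 10.2% in the fermentative groups, and *EMI2* 8.41% to 8.56% and 3.83% to 4.50%.

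The sum of all 4 genes was 11364 ± 538 TPM in *mrn1Δ* respiratory libraries and 9899 ± 933 TPM in wild-type respiratory libraries, and 1623 ± 86.6 TPM in *mrn1Δ* fermentative libraries and 1623 ± 121 TPM in wild-type fermentative libraries (SD, n = 3 each). That is 0.925% to 1.20% of all TPM in a respiratory library and 0.148% to 0.171% in a fermentative one.

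**Figure D2:**
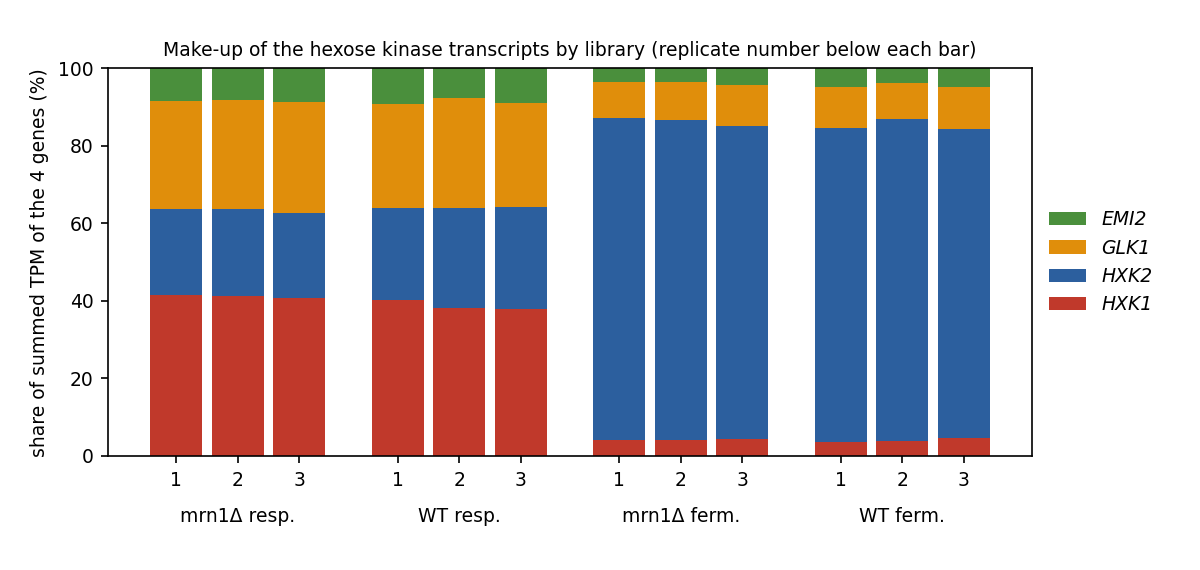
Share of each gene in the summed TPM of the 4 hexose kinases, as a percentage, 1 bar for each library with its replicate number below. *HXK2* fills 79.8% to 83.3% of every fermentative bar, and *HXK1* is the largest part of every respiratory bar, at 37.9% to 41.6%.

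Within the hexokinase pair, *HXK1* TPM per *HXK2* TPM was 1.88, 1.85 and 1.87 in *mrn1Δ* respiratory libraries and 1.69, 1.48 and 1.44 in wild-type respiratory libraries. In fermentative growth it was 0.0485 to 0.0559 in *mrn1Δ* and 0.0451 to 0.0566 in wild-type libraries. The balance of the pair lay on the side of *HXK1* in all respiratory libraries and of *HXK2* in all fermentative ones. In respiratory growth the *mrn1Δ* ratios were all above the wild-type ones, but the ratio was not tested between genotypes. In CPM, 34.7% of all single genes had genotype groups that did not overlap in that stage. *GLK1* stayed above *EMI2* in every library, at a TPM ratio of 3.36 ± 0.139 in *mrn1Δ* respiratory, 3.21 ± 0.404 in wild-type respiratory, 2.55 ± 0.106 in *mrn1Δ* fermentative and 2.28 ± 0.148 in wild-type fermentative libraries (SD, n = 3 each).

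The shift to ethanol and glycerol was tested in each genotype with edgeR's quasi-likelihood test over all genes, and a gene was called at a Benjamini-Hochberg adjusted p under 0.05. All 4 hexose kinases rose in both genotypes. In *mrn1Δ* cells 83.5% of 5793 genes were called in either direction, 43.2% higher and 40.3% lower, and in wild-type cells 75.0% of 5801 genes were called, 38.6% higher and 36.4% lower, so that being called is in itself common and the size of a change says more.

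*HXK1* rose 53.0-fold in *mrn1Δ* (log2 fold change 5.73, SE 0.09, adjusted p = 1.7e-11 by edgeR) and 47.8-fold in wild-type cells (log2 fold change 5.58, SE 0.15, adjusted p = 1.5e-08). The fold change ranked 14 of 5793 genes in *mrn1Δ* and 9 of 5801 in wild-type. *GLK1* rose 15.8-fold in *mrn1Δ* (log2 3.98, SE 0.10, adjusted p = 1.4e-10) and 13.3-fold in wild-type (log2 3.74, SE 0.13, adjusted p = 4.0e-08), at ranks 61 and 57. *EMI2* rose by 3.58 in *mrn1Δ* (log2, SE 0.11, adjusted p = 5.3e-10), for which the fold has a 95% interval of 10.2 to 14.1, and 9.41-fold in wild-type (log2 3.23, SE 0.11, adjusted p = 3.6e-08), at ranks 86 and 85.

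*HXK2* rose far less, 1.48-fold in *mrn1Δ* (log2 0.56, SE 0.05, adjusted p = 3.9e-06 by edgeR) and 1.55-fold in wild-type cells (log2 0.63, SE 0.12, adjusted p = 8.3e-04). The 95% intervals of these folds were 1.36 to 1.61 in *mrn1Δ* and 1.29 to 1.85 in wild-type, and 29.3% and 25.9% of all tested genes had a larger log2 fold change. Such changes are relative to the other transcripts of the cell. On the TPM scale the median of all genes was higher by 0.34 (log2) in *mrn1Δ* and 0.29 in wild-type than on the TMM scale, and the *HXK2* change was then 0.92 in both genotypes, in the same direction and called.

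**Figure D3:**
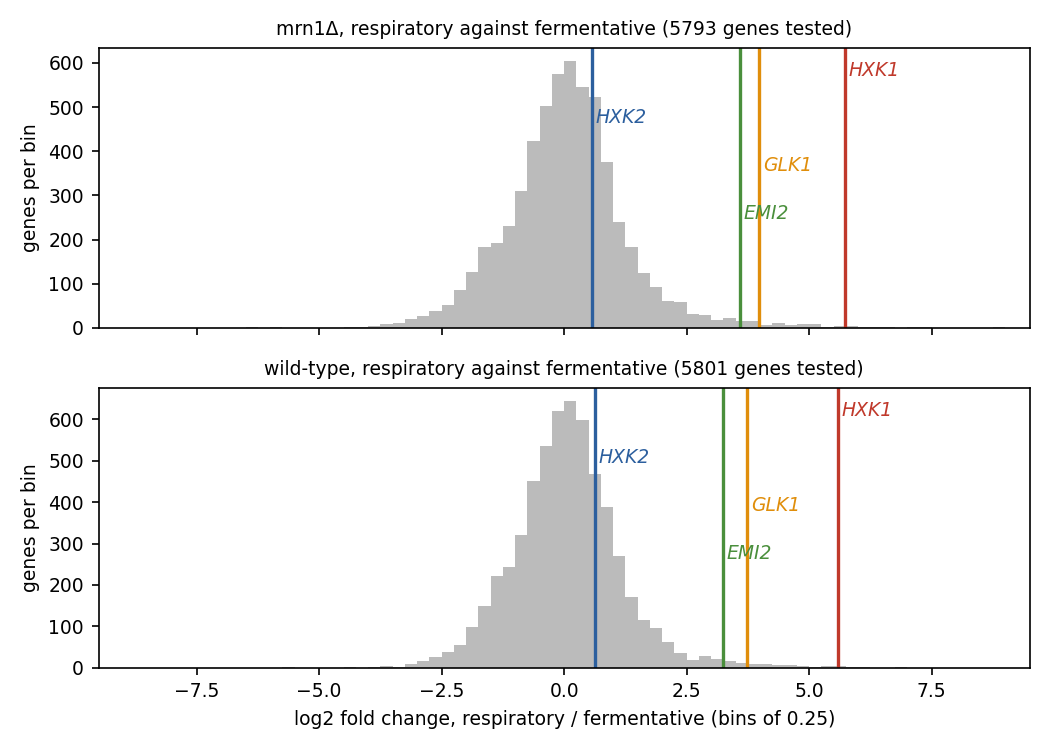
Number of genes by log2 fold change of respiratory against fermentative growth (bins of 0.25) in *mrn1Δ* above and wild-type below, with the 4 hexose kinases as vertical lines. *HXK1* (5.73 and 5.58), *GLK1* (3.98 and 3.74) and *EMI2* (3.58 and 3.23) stand in the right tail, and *HXK2* (0.56 and 0.63) lies within the bulk.

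Genotypes were compared next, to ask whether loss of Mrn1 went with another level of these enzymes. In fermentative growth none of the 4 genes was called by edgeR, none had an unadjusted p under 0.05 (0 of 4), and DESeq2 called 0, against 0.916% of 5785 genes called by edgeR. An unadjusted p under 0.05 in edgeR was found for 878 of 5785 genes. The log2 difference of *mrn1Δ* from wild-type was 0.08 for *HXK1* (95% interval -0.17 to 0.32, adjusted p = 0.727 by edgeR), 0.01 for *HXK2* (-0.16 to 0.18, adjusted p = 0.964), -0.06 for *GLK1* (-0.29 to 0.16, adjusted p = 0.763) and -0.23 for *EMI2* (-0.51 to 0.05, adjusted p = 0.401). The intervals leave room for differences of up to 0.51 (log2) in *EMI2*. None of the 4 genes had groups that did not overlap, which 21.6% of all genes had.

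In respiratory growth *HXK1*, *GLK1* and *EMI2* were higher on average in *mrn1Δ*, by 0.25, 0.20 and 0.14 (log2), but none of the 4 genes was called by edgeR, against 14.6% of 5800 genes. The 95% interval was 0.05 to 0.45 for *HXK1* (adjusted p = 0.0957 by edgeR), -0.03 to 0.43 for *GLK1* (adjusted p = 0.222) and -0.01 to 0.29 for *EMI2* (adjusted p = 0.194). *HXK2* differed by -0.04 (-0.26 to 0.18, adjusted p = 0.843). Of the 4 genes, 1 (*HXK1*) had an unadjusted p under 0.05 in edgeR, as did 1722 of 5800 genes, and DESeq2 called the same 1 (adjusted p = 0.0256). *HXK1* and *EMI2*, 2 of 4 genes, had groups that did not overlap, as 34.7% of all genes did. In edgeR 2 of these results turned on a single library, the second wild-type respiratory one, which had the highest levels of its group. Leaving it out by itself raises the difference. It was then 0.33 for *HXK1* (adjusted p = 0.0105 by edgeR) and 0.33 for *GLK1* (adjusted p = 0.00888), and both were called higher in *mrn1Δ*. *HXK2* was then at 0.08.

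Whether the shift itself differed between the genotypes was asked with an interaction term in a fit of the 12 libraries together. The rise was larger in *mrn1Δ* by 0.37 for *EMI2* (log2, 95% interval 0.04 to 0.69, adjusted p = 0.200 by edgeR), by 0.26 for *GLK1* (-0.07 to 0.60, adjusted p = 0.375) and by 0.17 for *HXK1* (-0.16 to 0.50, adjusted p = 0.589), and was -0.04 for *HXK2* (-0.33 to 0.24, adjusted p = 0.891). None of the 4 passed the test, against 3.23% of 5828 genes. *EMI2* had an unadjusted p of 0.0290 in edgeR, the only 1 of 4 under 0.05, against 1141 of 5828 genes, and DESeq2 called 0 of 4. *EMI2* was called without the third *mrn1Δ* fermentative library (0.50, adjusted p = 0.0475 by edgeR). That library was the highest of its group, so leaving it out by itself raises the difference.

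**Figure D4:**
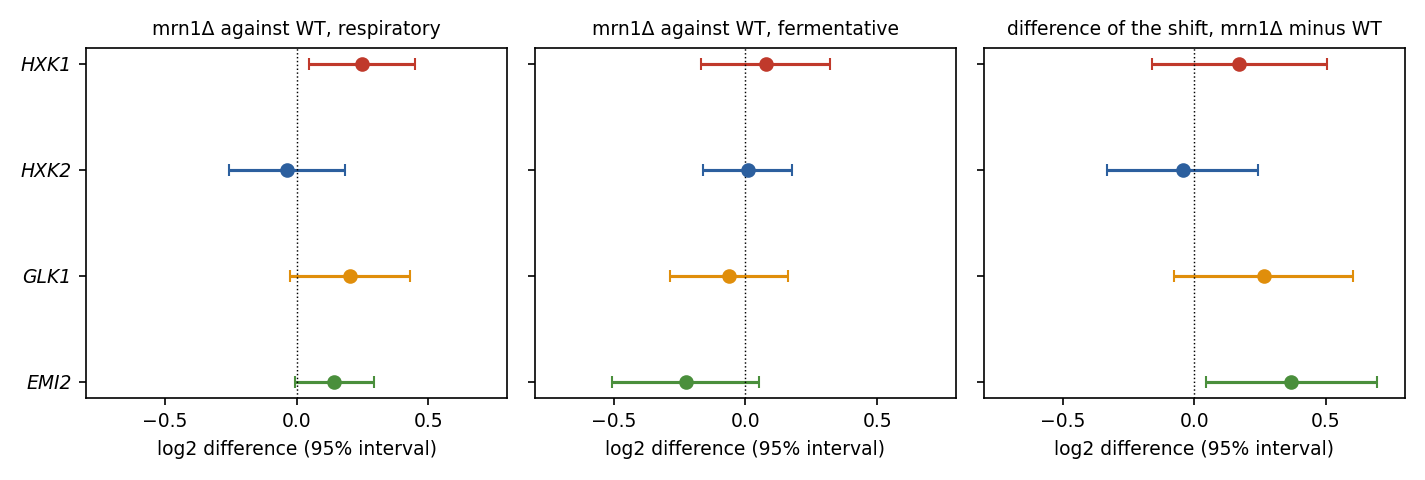
Log2 difference of *mrn1Δ* from wild-type in respiratory growth (left) and fermentative growth (middle), and of the shift between the genotypes (right), with 95% intervals from edgeR for each hexose kinase. All intervals but those of *HXK1* in respiratory growth (0.05 to 0.45) and of *EMI2* for the shift (0.04 to 0.69) cross 0, and none of the 12 values passed the test after adjustment.

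Sugar phosphates made by these kinases pass to neighbouring enzymes, and 23 genes of enzymes and proteins one step away were listed. In the shift 15 of 23 rose and 5 fell in *mrn1Δ*, with a median log2 fold change of 1.54, and 17 of 23 rose and 4 fell in wild-type, with a median of 1.37. The medians over all tested genes were 0.05 and 0.03. Of all tested genes 83.5% were called in *mrn1Δ*, 43.2% higher and 40.3% lower. In wild-type 75.0% were called, 38.6% higher and 36.4% lower. *PGM2*, the main phosphoglucomutase, changed by 5.14 (log2) in *mrn1Δ* and 4.79 in wild-type cells, and *SUC2*, the invertase that splits sucrose and is a classic target of glucose repression, by 3.92 and 4.18. *TPS2* and *TSL1*, both of the trehalose synthase complex, rose by 3.58 and 3.14 in *mrn1Δ* and by 3.53 and 2.75 in wild-type.

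The genes that fell were chosen for mention after their values were seen. They were *PGI1*, whose enzyme turns glucose 6-phosphate into fructose 6-phosphate (-0.78 in *mrn1Δ* and -0.54 in wild-type), *PGM1*, the minor phosphoglucomutase (-0.61 and -0.45), *PFK2*, a subunit of phosphofructokinase (-0.53 and -0.33), and *GFA1*, the first enzyme of hexosamine synthesis (-0.43 and -0.46). *PFK1*, the other subunit of phosphofructokinase, fell by 0.39 in *mrn1Δ* and was at -0.20 in wild-type (adjusted p = 0.0884 by edgeR), and the interaction was not called (adjusted p = 0.488). On the TPM scale, which moves the median of all genes up by 0.29 to 0.34 as given above, 3 of 5 were still called lower in *mrn1Δ* and 1 of 4 in wild-type.

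Between genotypes 4 of these 23 genes were higher in *mrn1Δ* respiratory libraries and 0 lower, where 6.79% of all genes were called higher and 7.83% lower. They were *ATH1*, the acid trehalase (0.52, adjusted p = 9.6e-04 by edgeR), *NTH2*, a neutral trehalase (0.28, adjusted p = 0.0119), *PFK26*, which makes fructose 2,6-bisphosphate (0.25, adjusted p = 0.0193), and *TSL1* (0.26, adjusted p = 0.0336), and the first 3 are named because the count was small. *ATH1* was called under all 14 alternatives, *NTH2* under 12, *PFK26* under 10 and *TSL1* under 7. Without each *mrn1Δ* respiratory library in turn the list had 1 or 2 calls. For the interaction 3 of 23, *ATH1*, *NTH2* and *PFK26*, were called with a larger change in *mrn1Δ* and 0 with a smaller one, against 1.12% and 2.11% of all genes. Leaving out each of the 12 libraries in turn gave 0 to 3 of these calls. In fermentative growth 0 of 23 were called by edgeR, with 1 at an unadjusted p under 0.05 (878 of 5785 over all genes) and 1 called by DESeq2.

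A list of 21 genes of glucose sensing and repression around Hxk2 held members that went both ways. In the shift 15 of 21 rose and 5 fell in *mrn1Δ* (median 0.35), where 83.5% of all genes were called, and 11 of 21 rose and 3 fell in wild-type (median 0.33), where 75.0% of all genes were called, a larger share than in the list. *MTH1*, which holds hexose transporter genes repressed with Rgt1, changed by 3.15 in *mrn1Δ* and 3.45 in wild-type, *MIG1* by 1.79 and 2.24, the glucose sensor gene *SNF3* by 2.26 and 2.21, and *MIG2*, a repressor related to Mig1, by 1.35 and 1.89. *STD1*, the paralog of *MTH1*, went the other way, with -1.56 in *mrn1Δ* and -1.02 in wild-type.

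In respiratory growth 2 of these 21 genes were higher and 5 lower in *mrn1Δ*, against the 6.79% and 7.83% of all genes given above, a small number of genes that was named after the values were seen. *STD1* had 20.7 to 23.1 CPM in *mrn1Δ* respiratory libraries and 28.3 to 34.9 CPM in wild-type respiratory libraries (log2 difference -0.54, adjusted p = 0.00391 by edgeR). *MIG1* had 179 to 184 CPM in *mrn1Δ* and 207 to 240 CPM in wild-type respiratory libraries (-0.28, adjusted p = 0.0168), and the groups did not overlap for either gene. *MIG2* (-0.73, adjusted p = 0.0445 by edgeR), *MIG3* (-0.56, adjusted p = 0.0216) and *TOS3*, a kinase that activates Snf1 (-0.28, adjusted p = 0.0406), were also lower. *TUP1*, the corepressor that Mig1 recruits, was higher (0.39, adjusted p = 0.00168), as was *SIP1*, a subunit of the Snf1 kinase (0.18, adjusted p = 0.0472).

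*STD1* and *TUP1* were called under all 14 alternatives, *MIG3* under 12, *MIG2* under 10, *MIG1* under 9, *TOS3* under 7 and *SIP1* under 4. Without the second or the third *mrn1Δ* respiratory library 1 gene was still called lower. The interaction was called for *STD1* alone (-0.51, adjusted p = 0.0360 by edgeR), against 1.12% of all genes called higher and 2.11% lower. The call of *STD1* was lost without any of 8 of the 12 libraries. In fermentative growth 0 of 21 were called by edgeR, with 4 at an unadjusted p under 0.05 (878 of 5785 over all genes) and 2 called by DESeq2.

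The third list held *MSN2*, *MSN4* and stress genes that these activators drive, 22 in all. In the shift 20 of 22 rose and 1 fell in *mrn1Δ* (median 2.58), and 21 of 22 rose and 0 fell in wild-type (median 2.53). Over all tested genes 43.2% were called higher and 40.3% lower in *mrn1Δ*, and 38.6% higher and 36.4% lower in wild-type. *GPH1*, glycogen phosphorylase, changed by 5.76 (log2) in *mrn1Δ* and 5.79 in wild-type, *GSY2*, a glycogen synthase, by 4.54 and 4.08, *XBP1*, a stress-induced repressor, by 3.49 and 3.55, and *HSP12*, a small heat shock protein that protects membranes, by 4.06 and 3.42. The rise of *HXK1* was of the size of that of *GPH1*, and those of *GLK1* and *EMI2* lay between the medians of this list and *GSY2*. The gene that fell in *mrn1Δ* was *MSN2* itself (-0.34, named after its value was seen), which on the TPM scale was at 0.01.

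In respiratory growth 8 of these 22 genes were higher in *mrn1Δ* and 0 lower, against 6.79% of all genes called higher and 7.83% lower, and the count was 5 without the first or the third *mrn1Δ* respiratory library. Among the 8, *ALD3* (0.91), *GND2* (0.50), *GDB1* (0.45), *DCS2* (0.39) and *TFS1* (0.30) were called under all 14 alternatives. *RTN2* (0.55) was called under 10, *DDR2* (0.37) under 8 and *XBP1* (0.23, adjusted p = 0.0396 by edgeR) under 7. All of them but *XBP1* were named after their values were seen. *GPH1* (-0.03, adjusted p = 0.846 by edgeR), *GSY2* (0.21, adjusted p = 0.0787) and *HSP12* (0.50, adjusted p = 0.0698) did not pass. The interaction was called for 4 of 22 genes, all with a larger rise in *mrn1Δ*, against 1.12% of all genes called higher and 2.11% lower. *ALD3* (1.32), *DCS2* (0.68) and *TFS1* (0.57) were called under all 19 alternatives for it, and *GND2* (0.64) under 10. In fermentative growth 0 of 22 were called by edgeR, with 6 at an unadjusted p under 0.05 (878 of 5785 over all genes) and 1 called by DESeq2.

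**Figure D5:**
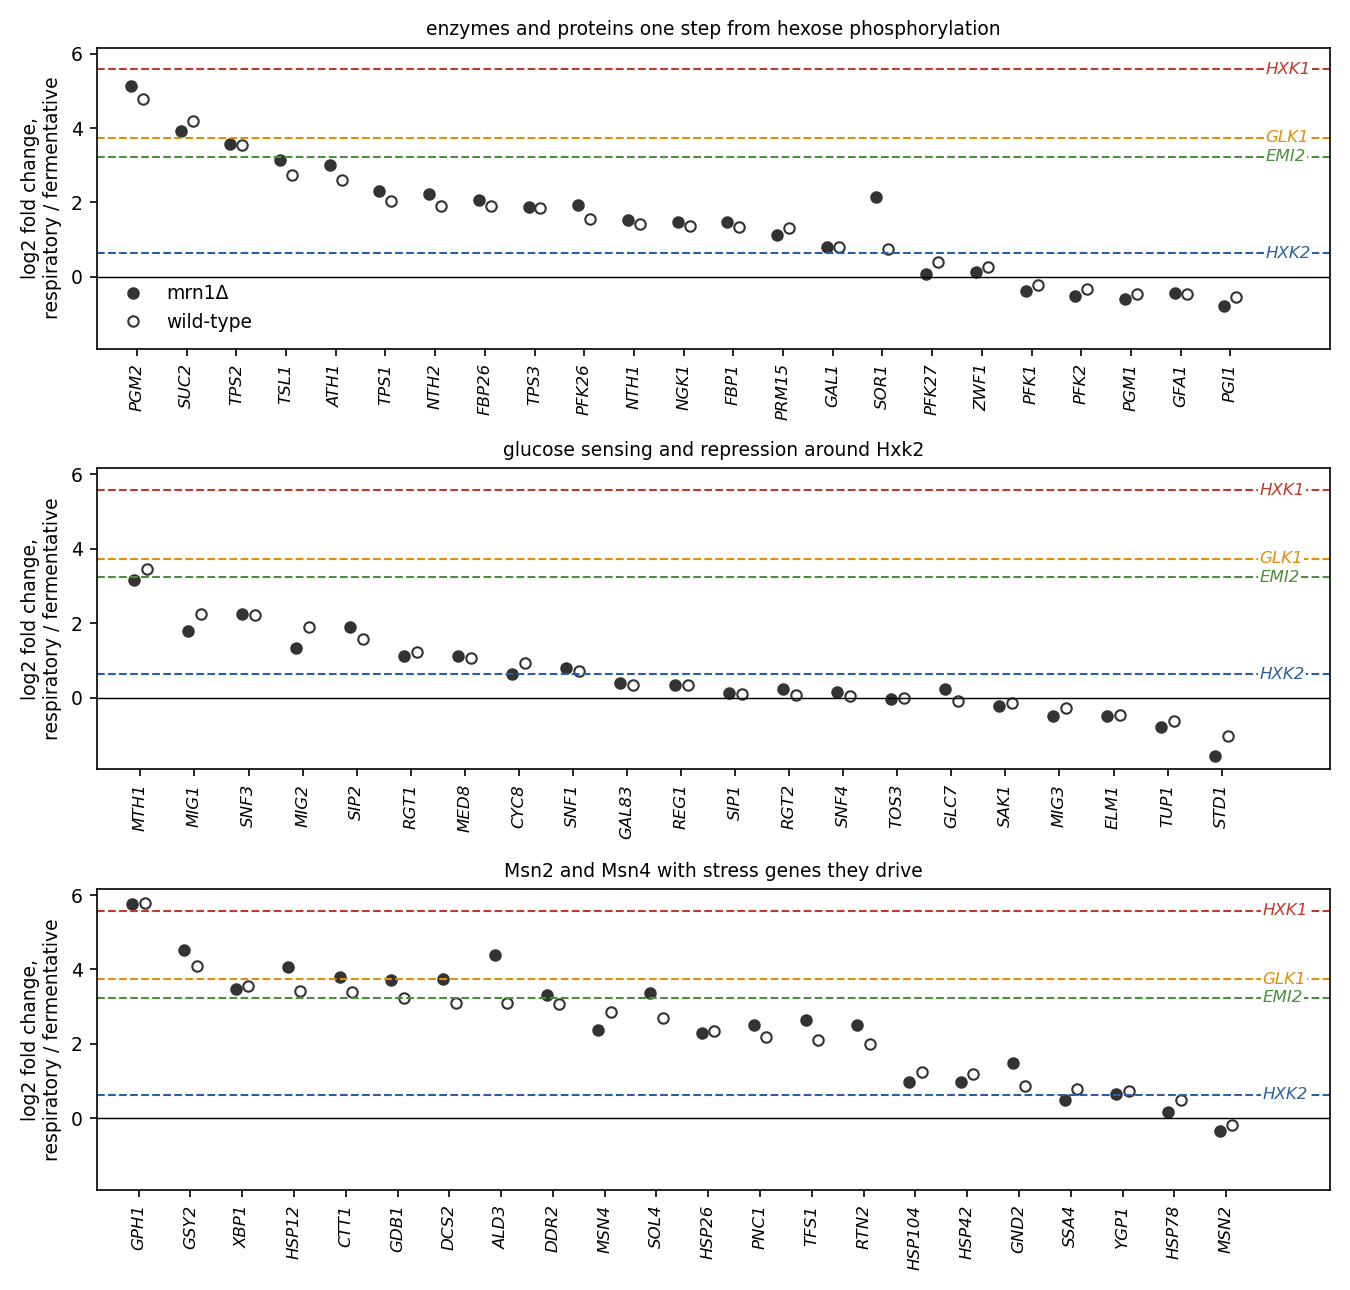
Log2 fold change of respiratory against fermentative growth for the genes of the 3 lists, *mrn1Δ* as filled and wild-type as open points, ordered by the wild-type value, with the wild-type values of the hexose kinases as dashed lines. *GPH1* (5.76 and 5.79) and *PGM2* (5.14 and 4.79) come nearest to *HXK1*, and 12 of the 21 genes of the middle list have wild-type values below the line of *HXK2* (0.63).

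The genes whose course over the 12 libraries was most like that of each hexose kinase were found by the root-mean-square (RMS) difference of log2 CPM, each gene centred on its own mean, among 5174 genes. For *HXK1* they were *GPH1* (RMS 0.145), *PHM7* (0.156) and YGR067C (0.169). For *GLK1* they were *IGD1*, an inhibitor of glycogen debranching (0.160), *TMA10*, a ribosome-associated protein (0.167), and *AQY3*, a putative channel for water and glycerol (0.179). For *EMI2* they were *PYK2*, the pyruvate kinase isoform that glucose represses (0.0768), *GLG1*, a glycogenin that primes glycogen synthesis (0.120), and *STF2* (0.135). For *HXK2* they were *PRR1*, a protein kinase (0.0620), *ERG9*, squalene synthase (0.0655), and *ZIP1*, a protein of the synaptonemal complex (0.0679). The kinases themselves were left out of the candidates, so their courses were not compared with each other in this way. With Pearson's correlation as the measure, which ignores the size of a change, *PYK2* and *ERG9* stayed among the nearest 3 and the other genes did not.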

How the data were processed

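RNA was extracted from 12 cultures, rRNA was depleted, and single-end reads were counted on coding sequences. The authors deposited estimated counts per coding sequence, unnormalized, and TPM scaled to 1000000 per library. The submitters' processing notes name kallisto 0.44.0 and R64; the strand setting is not given in the sources used here. Counts were rounded (623 coding sequences had counts that were not whole). Of 5917 identifiers, 5911 matched R64.

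Each comparison was fitted on its 6 libraries, and the interaction on 12, with edgeR 4.0.16 (R 4.3.3, TMM, filterByExpr, quasi-likelihood, Benjamini-Hochberg). The fit was also run on simulated counts in which few genes changed, equally in both directions. That check does not cover a comparison in which most genes change, as in the shift. A floor of 3 counts is 0.113 to 0.185 CPM and covers counting error only. Deviations of same-numbered libraries correlated weakly between the stages, at 0.11 to 0.25 in *mrn1Δ* and 0.10 to 0.22 in wild-type. The tests reported had no replicate term. Promoters were the 500 bases before start codons of the R64 RefSeq annotation. DESeq2 1.42.0, limma 3.58.1 on log2(TPM + 1), other normalizations and filters, all 12 libraries, a replicate block and leaving out each library were tried, and YCL042W counts were added to *GLK1* after its shared bases were seen.

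The members and lists were chosen with earlier results of these data known. The text names the members, up to 4 genes per list with the largest absolute change in the wild-type shift, the 3 genes most like each member (mean of at least 10 CPM), *MRN1*, and marker genes. List genes that fell in the shift or were called between genotypes were named after their values were seen. Python 3.11.15, numpy 2.4.6, pandas 2.3.3 and matplotlib 3.10.9 were used.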

Additional observations from a re-analysis of the deposited data

How the results depend on the processing

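The shift of all 4 hexose kinases kept its direction and its call under every alternative in both genotypes: 5.65 to 6.07 (log2) in *mrn1Δ* and 5.47 to 5.86 in wild-type for *HXK1*, 0.53 to 0.92 and 0.52 to 0.92 for *HXK2*, 3.89 to 4.33 and 3.61 to 4.02 for *GLK1*, and 3.49 to 3.93 and 3.15 to 3.52 for *EMI2*. Adding YCL042W to *GLK1* left it at 3.97 and 3.73. Between genotypes the uncalled values changed sign for *HXK2*, with -0.049 under upper-quartile normalization in fermentative growth and 0.0086 under limma on TPM in respiratory growth. *HXK1* in respiratory growth was called by DESeq2 (0.25). Leaving out each library in turn gave, in fermentative growth, -0.0095 to 0.17 for *HXK1*, -0.019 to 0.054 for *HXK2*, -0.16 to 0.025 for *GLK1* and -0.36 to -0.14 for *EMI2*, in respiratory growth 0.18 to 0.33 for *HXK1*, -0.11 to 0.077 for *HXK2* and 0.13 to 0.33 for *GLK1*, and for the interaction 0.073 to 0.25 for *HXK1*, -0.12 to 0.055 for *HXK2*, 0.16 to 0.38 for *GLK1* and 0.27 to 0.50 for *EMI2*. The cause was not tested.

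Between the genotypes the correlations of same-numbered libraries were 0.01 to 0.21 in fermentative and -0.18 to 0.16 in respiratory growth. Over all groups 12 of 18 library pairs matched best by number. These values do not settle which cultures were paired. With the replicate block *HXK1* was at 0.25 in respiratory growth (adjusted p = 0.0741 by edgeR) and *EMI2* at 0.37 for the interaction (adjusted p = 0.147), no call of a hexose kinase changed, and the interaction had 99 genes called higher against 65 without it.

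Counts over all genes moved more. In fermentative growth 34 genes were called higher and 19 lower, against 153 and 54 with DESeq2, 132 and 60 with all 12 libraries, and 13 to 63 and 6 to 27 when leaving out each library. In respiratory growth 394 were called higher and 454 lower, against 260 higher with upper-quartile normalization, 258 higher with all 12 libraries, 226 lower with limma on TPM, and 152 to 445 and 165 to 473 when leaving out each library. For the interaction 65 were called higher and 123 lower, against 114 and 317 with DESeq2, 39 lower with limma on TPM, and 26 to 155 and 50 to 346 when leaving out each library.

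Of the genes around hexose phosphorylation, 1 was called higher by DESeq2 in fermentative growth. On the TPM scale 1 fell in the wild-type shift and 3 in the *mrn1Δ* shift, and for the interaction 0 were called higher there and 1 with RLE, against 3 in the fit reported. Leaving out each library gave 1 to 5 higher in respiratory growth, and 0 to 3 higher and 0 to 1 lower for the interaction. Of the repression genes, DESeq2, all 12 libraries and the replicate block each called 1 higher in fermentative growth, and DESeq2 1 lower; 1 was higher in respiratory growth with DESeq2, upper-quartile normalization, all 12 libraries, the replicate block and limma on TPM, and 3 were lower with all 12 libraries and limma on TPM. In the shift 5 fell in wild-type with all 12 libraries, 1 with limma on TPM, and 2 in *mrn1Δ* with limma on TPM, where *SAK1* changed sign (0.12); limma on TPM called 0 lower for the interaction. Leaving out each library gave 0 to 1 in each direction in fermentative growth, 1 to 3 higher and 1 to 5 lower in respiratory growth, 3 to 5 lower in the wild-type shift, and 0 to 2 in each direction for the interaction. Of the stress genes, DESeq2 and all 12 libraries called 1 lower in fermentative growth, limma on TPM called 0 lower in the *mrn1Δ* shift (*MSN2* at 0.011), and DESeq2 called 7 higher for the interaction. Leaving out each library gave 5 to 11 higher and 0 to 1 lower in respiratory growth, 0 to 1 lower in the wild-type shift, and 3 to 8 higher and 0 to 1 lower for the interaction.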
